A study of Homo sapiens with 12 samples.

Results

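The genes of the unfolded protein response followed here through a ribosome profiling experiment were HSPA5, HSP90B1, CALR, PDIA4, EIF2AK3, ERN1, ATF6, XBP1, DNAJB9 and HERPUD1. They were chosen by symbol, as endoplasmic reticulum (ER) chaperones, sensors of ER stress and classical targets, and make up 10 of the 15798 genes in the count table. All 10 passed the filter on low counts (10 counts or more in 3 or more input libraries), which left 10663 genes for testing.

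The cells were HCT116, an established human line from a colorectal carcinoma, and all libraries came from this single line. Cells were kept for 24 h in DMSO, the solvent, or in 100 nM trametinib, a drug that blocks the kinases MEK1 and MEK2 and thereby the activation of ERK, to ask which mRNAs change in translation when this pathway is shut off. Cytoplasmic lysates of both treatments were made after a short cycloheximide treatment, which holds ribosomes on the mRNA. Part of the lysate RNA was broken by alkali and sequenced as input, a measure of mRNA abundance, and part was digested with RNase I, so that the ribosome-protected fragments of monosomes, or footprints, could be sequenced. This gave 4 groups of 3 libraries each, 12 in all, which the submitters describe as biological replicates.

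The unfolded protein response adjusts the folding capacity of the ER to the load of secretory and membrane proteins. Membrane proteins of the ER start it, each held inactive by the chaperone BiP: PERK (gene EIF2AK3) phosphorylates the initiation factor eIF2α, which slows most translation but favours that of ATF4; IRE1 (gene ERN1) splices XBP1 mRNA so that an active transcription factor is made; and ATF6 is cut in the Golgi to release a transcription factor. ATF6 and spliced XBP1 then raise the genes of chaperones and of ER-associated degradation, while ATF4 raises genes of amino acid supply and, with lasting stress, of cell death.

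ATF6 and XBP1 act through a known promoter element, so the promoter sequences that hold it are shown for the genes whose levels are compared below. RefSeq promoter windows (GRCh38.p14, from 250 bases before to 50 bases after the annotated start) matched all 10 genes by symbol, with 12 windows. The ER stress response element was searched on both strands as CCAAT and CCACG with 9 bases of any kind between them. It lay in 4 of the 12 windows, from 4 of the 10 genes, against 0.0769% of all 35116 windows. Its second form, ATTGG and CCACG with 1 base of any kind between them, lay in 1 of the 12 windows, against 0.0541% of all windows. A shorter element, TGACG followed directly by TGG, held by 0.729% of all windows, was in none of the 12 windows. The 10 genes were chosen as genes of this response, so these contrasts are a description and not a test. Each site is printed 5′ to 3′ on the strand of its gene with 5 bases on either side, and capitals mark the fixed letters of the element or of its reverse complement.

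HSPA5 (chr9:125241386-125241414, minus strand): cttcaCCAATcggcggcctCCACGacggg
HSP90B1, upstream site (chr12:103930211-103930239, plus strand): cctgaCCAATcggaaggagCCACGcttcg
HSP90B1, downstream site (chr12:103930316-103930344, plus strand): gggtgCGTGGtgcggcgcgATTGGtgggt
CALR (chr19:12938379-12938407, plus strand): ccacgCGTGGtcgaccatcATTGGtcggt
XBP1 (chr22:28800598-28800626, minus strand): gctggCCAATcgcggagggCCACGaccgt
HERPUD1, second form (chr16:56932020-56932040, plus strand): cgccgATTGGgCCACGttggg

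The elements of HSPA5, XBP1 and HERPUD1 began 66, 52 and 117 bases before the RefSeq start, and that of CALR 225 bases before it. The elements of HSP90B1 began 194 and 89 bases before the start, where Gencode v44 places a noncoding part of an exon of a longer HSP90B1 transcript, while the other 4 sites overlapped no annotated gene. PDIA4, EIF2AK3, ERN1, ATF6 and DNAJB9 had neither form in these windows, which says only that these letters are not there. A match to the letters is not a measured binding site.

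Counts within reading frames totalled 2276693 to 2845568 per input library and 10127477 to 19181588 per footprint library, so footprint values rest on more counts. The standard error (SE) of a change also holds the spread between cultures. With all libraries it was larger in footprints than in input for HSPA5 (0.45 against 0.37) and smaller for HSP90B1 (0.12 against 0.17). Levels are given as CPM, counts scaled to the size of the library within each assay. Genes used as a check of the treatment, those that ERK switches on such as DUSP6 and SPRY4, were lower under trametinib for 12 of 12 genes in input and in footprints. Of 8 colorectal epithelial markers, EPCAM, KRT8, KRT18, KRT19, CDH1 and CDX2 were present, and VIL1 and LGALS4 were at 0 to 2 counts in every library. Of the 6 tested, 4 were higher under trametinib in footprints (5 without DMSO replicate 1), with CDH1 at a log2 change of 1.07 and KRT19 at 0.91, and CDH1 in DMSO replicate 1 was 1.04 in input and 1.13 in footprints above the other DMSO libraries on the log2 scale. Markers of leukocytes, endothelium, fibroblasts and muscle summed to 39 to 96 counts per input library and 132 to 603 per footprint library. PTPRC and CD3E were at 0 or 1 count, while COL1A1 had 78 to 148 and DES 47 to 120 footprint counts. Among these markers COL3A1 and VWF were higher under trametinib, at no more than 42 input counts in any library. COL3A1 footprint counts were 1, 3 and 1 in DMSO and 245, 328 and 167 under trametinib, a log2 change of 6.96 (SE 0.48, edgeR adjusted p = 8.44e-06). The footprint log2 change of VWF was 1.61, and 2.29 without DMSO replicate 1, and the part of these markers in the results below was not tested.

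The input and footprint libraries numbered 1 of DMSO, taken here as 1 culture, stood apart. In these libraries, 2.79% of tested genes in input and 3.09% in footprints lay at least 2-fold above the mean of the other 2 libraries of the group, against 0.0375% to 1.6% in each of the other 10 libraries. Of the 10 unfolded protein response genes, 6 were among these genes in both assays: HSPA5, ERN1, ATF6, XBP1, DNAJB9 and HERPUD1. No unfolded protein response gene reached this limit in any other library. HSPA5 ranked 46 of 10663 genes for its excess in input and 47 in footprints, where it took 0.789% of all counts of the library against 0.213% to 0.273% in the other 5 footprint libraries. HSP90B1, CALR and PDIA4, the other chaperones, did not share the excess, with log2 differences between -0.47 and 0.05, and EIF2AK3 was higher by 0.33 in input and 0.64 in footprints. The labels give no reason to leave this culture out, so the changes of the 10 genes and the list counts in footprints are given with all libraries and without it. Of 28 genes taken from other lists for their footprint change, 28 were called in the same direction without it, and the values of the 3 that moved by over 1.5-fold (DDIT3, TRIB3 and VWF) are given without it too. These 28 were the strongest called changes of their lists, and both fits share the remaining libraries, so the kept calls say little about other genes. What set the culture apart was not tested.

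**Figure D1:**
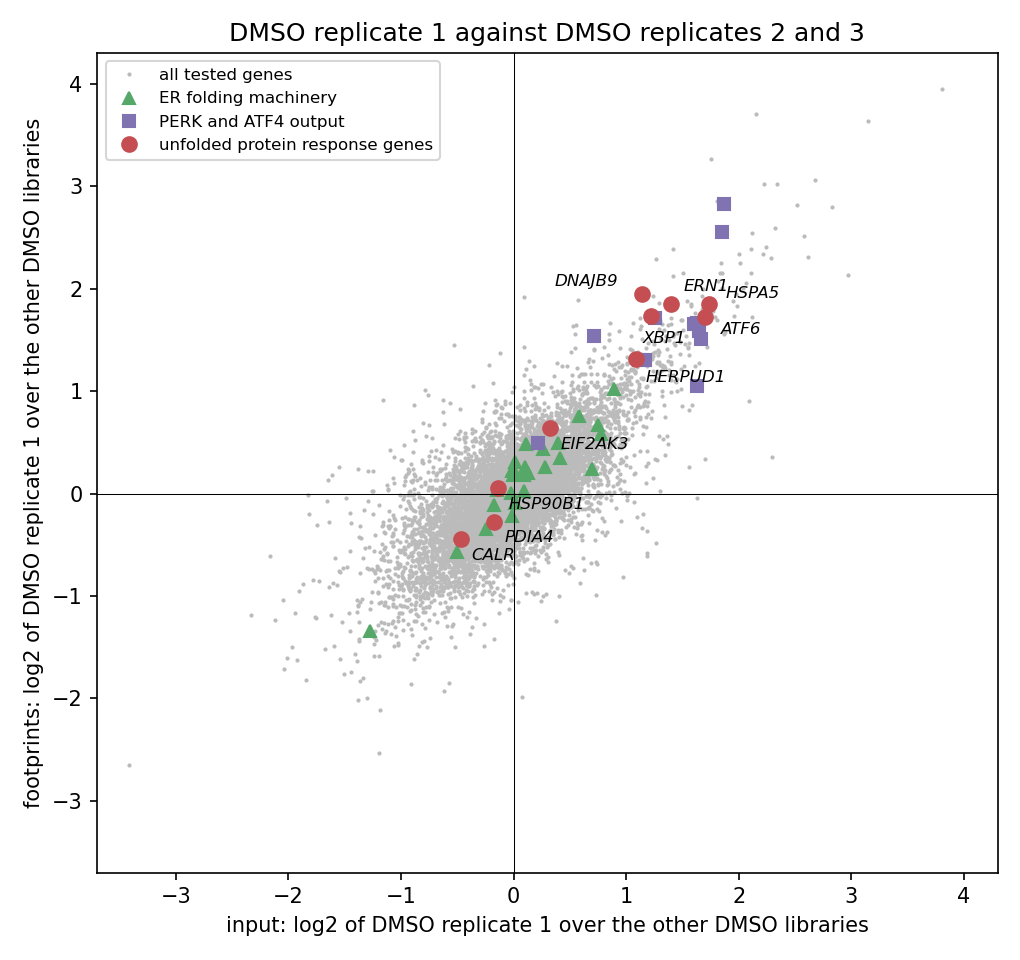
Log2 difference of DMSO replicate 1 from the mean of DMSO replicates 2 and 3, in input (x axis) and in footprints (y axis), for each of 10663 tested genes (grey points), with the unfolded protein response genes in red, ER folding machinery in green and PERK and ATF4 output in purple. HSPA5, ERN1, ATF6, XBP1, DNAJB9 and HERPUD1 lie above 1 on both axes, and HSP90B1, CALR, PDIA4 and EIF2AK3 do not.

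These 6 genes were grouped by their excess in DMSO replicate 1, so a wide spread within the DMSO group was given in advance, and its size is described here. Between the DMSO footprint libraries the coefficient of variation of HSPA5 was 80.5%, against a median of 14.3% over all tested genes, and under trametinib it was 1.66% against a median of 8.04%. DNAJB9, ERN1, XBP1, ATF6 and HERPUD1 likewise varied by 57.8% to 84.7% between the DMSO footprint libraries and by 4.01% to 14.9% between those of trametinib. HSP90B1 varied by 8.01% and 2.33%.

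HSPA5 (GRCh38 chromosome 9, 125234853 to 125241382, minus strand) encodes BiP, the Hsp70 chaperone of the ER lumen that also holds the 3 sensors inactive. Its input level was 2761, 970.2 and 706 CPM in DMSO replicates 1, 2 and 3, and 948, 987 and 833 CPM under trametinib. Its footprint level was 8539.6, 2468 and 2270.4 CPM in DMSO and 2529, 2526 and 2601 CPM under trametinib. The groups overlapped in input because DMSO replicate 3 lay below and DMSO replicate 1 far above all trametinib libraries, and in footprints DMSO replicate 1 lay above them and the other 2 just below. The log2 change of trametinib over DMSO was -0.68 in input (SE 0.37, edgeR quasi-likelihood adjusted p = 0.178) and -0.79 in footprints (SE 0.45, adjusted p = 0.173). Without DMSO replicate 1 it was 0.14 (SE 0.15, adjusted p = 0.516) and 0.11 (SE 0.11, adjusted p = 0.395), so no HSPA5 change was called either way, and its sign rested on 1 culture.

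HSP90B1 (chromosome 12, 103930107 to 103953931, plus strand) encodes the Hsp90 chaperone of the ER lumen. In footprints it was at 2251, 2010.1 and 2354 CPM in DMSO and 3321, 3279 and 3430.05 CPM under trametinib, so that all trametinib libraries lay above all DMSO libraries. The log2 change was 0.60 (SE 0.12, edgeR adjusted p = 0.00397), and 0.62 without DMSO replicate 1 (adjusted p = 0.000556). In input HSP90B1 was at 808, 1099 and 721 CPM in DMSO and at 1113, 1189 and 974 CPM under trametinib. These input groups overlapped through DMSO replicate 2, and the log2 change of 0.32 (SE 0.17, adjusted p = 0.170), or 0.26 without DMSO replicate 1 (adjusted p = 0.237), was not called.

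CALR (chromosome 19, 12938578 to 12944489, plus strand), encoding the lectin chaperone calreticulin that holds newly made glycoproteins, was the one chaperone of the 4 called higher in both assays. Whether its change differed from that of the other chaperones was not tested. Its input level was 906, 1204 and 1302 CPM in DMSO and 1644, 1912 and 1910.1 CPM under trametinib. Footprints stood at 1013, 1323 and 1445 CPM in DMSO and 2043, 2116 and 2058 CPM under trametinib. The groups did not overlap in either assay, and DMSO replicate 1 was the lowest library of CALR in both. The log2 change was 0.68 in input (SE 0.16, edgeR adjusted p = 0.00533) and 0.72 in footprints (SE 0.15, adjusted p = 0.00425), and without DMSO replicate 1 it was 0.54 (adjusted p = 0.00455) and 0.59 (adjusted p = 0.000466).

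PDIA4 (chromosome 7, 149003062 to 149028662, minus strand) encodes a disulfide isomerase, which forms and rearranges the disulfide bonds of ER clients. Its footprint level was 378, 457 and 458 CPM in DMSO and 617, 642 and 617 CPM under trametinib, with no overlap. The log2 change in footprints was 0.54 (SE 0.12, edgeR adjusted p = 0.00528), and 0.45 without DMSO replicate 1 (adjusted p = 0.00146). In input PDIA4 was at 382, 399 and 464 CPM in DMSO and at 487, 564 and 512 CPM under trametinib. These groups did not overlap either, but the input change of 0.33 (SE 0.14, adjusted p = 0.0952), or 0.27 without DMSO replicate 1 (adjusted p = 0.153), was not called.

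Of the sensors, EIF2AK3 (chromosome 2, 88556741 to 88691518, minus strand), the gene of PERK, rose in footprints. Its input level was 48.5, 37.0 and 40.1 CPM in DMSO and 48.5, 52.7 and 39.0 CPM under trametinib, with overlapping groups and a log2 change of 0.16 (SE 0.19, edgeR adjusted p = 0.551), or 0.28 without DMSO replicate 1 (adjusted p = 0.292). In footprints it was at 14.3, 9.25 and 8.97 CPM in DMSO and 19.8, 19.1 and 19.4 CPM under trametinib. Here the groups were apart, with DMSO replicate 1 the nearest to trametinib. The log2 change in footprints was 0.83 (SE 0.19, adjusted p = 0.00659) and became 1.10 (SE 0.14, adjusted p = 1.52e-05) without DMSO replicate 1.

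ERN1 (chromosome 17, 64039080 to 64130819, minus strand), the gene of IRE1, had the lowest level per coding base of the 10 genes under trametinib in both assays. Footprints stood at 59.5, 18.5 and 14.6 CPM in DMSO and 15.8, 15.0 and 13.5 CPM under trametinib. Its input level was 54.4, 22.1 and 18.3 CPM in DMSO and 15.4, 13.6 and 19.3 CPM under trametinib. In both assays DMSO replicate 3 lay within the range of the trametinib libraries and DMSO replicate 2 above it, and replicate 1 lay 2.64-fold above the other DMSO libraries in input and 3.61-fold in footprints. The log2 change was -0.98 in input (SE 0.37, edgeR adjusted p = 0.0581) and -1.07 in footprints (SE 0.46, adjusted p = 0.0838), and shrank to -0.33 (adjusted p = 0.329) and -0.14 (adjusted p = 0.432) without DMSO replicate 1.

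ATF6 (chromosome 1, 161766298 to 161977574, plus strand) encodes the sensor that is itself a transcription factor. In footprints it was at 263, 88.1 and 71.9 CPM in DMSO and at 94.8, 89.2 and 86.2 CPM under trametinib. In input it was at 234, 91.3 and 56.0 CPM in DMSO and at 78.9, 86.0 and 75.0 CPM under trametinib. In both assays DMSO replicate 1 lay above and DMSO replicate 3 below all trametinib libraries. The log2 change was -0.67 in input (SE 0.38, edgeR adjusted p = 0.196) and -0.65 in footprints (SE 0.42, adjusted p = 0.226), against 0.11 (adjusted p = 0.695) and 0.18 (adjusted p = 0.170) without DMSO replicate 1.

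XBP1 (chromosome 22, 28794555 to 28800597, minus strand) is the transcription factor whose mRNA is spliced by IRE1. Its input level was 148, 67.4 and 59.2 CPM in DMSO and 68.3, 97.0 and 76.3 CPM under trametinib. Its footprint level was 92.7, 30.9 and 25.1 CPM in DMSO and 30.1, 32.1 and 35.3 CPM under trametinib. Groups overlapped in both assays, with the 3 trametinib footprint libraries close to DMSO replicate 2. The log2 change was -0.19 in input (SE 0.29, edgeR adjusted p = 0.659) and -0.62 in footprints (SE 0.42, adjusted p = 0.255), and without DMSO replicate 1 it was 0.34 (adjusted p = 0.162) and 0.23 (adjusted p = 0.143). Counts were summed over all annotated frames of the gene, so they cannot tell the spliced from the unspliced reading frame, and hence say nothing on IRE1 activity.

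DNAJB9 (chromosome 7, 108569867 to 108574850, plus strand), a J-domain partner of BiP, is a target of spliced XBP1. Its input counts were low, at 40, 19 and 14 in DMSO and 27, 26 and 14 under trametinib. In footprints it was at 67.6, 16.4 and 18.5 CPM in DMSO and 27.7, 29.8 and 36.6 CPM under trametinib. DMSO replicate 1 was above and DMSO replicates 2 and 3 were below all trametinib footprint libraries. The footprint change of -0.14 (SE 0.47, edgeR adjusted p = 0.827) therefore turned into 0.83 (SE 0.15, adjusted p = 0.000282) without DMSO replicate 1, and the call that DNAJB9 footprints rose holds only without that culture.

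HERPUD1 (chromosome 16, 56932142 to 56944864, plus strand), an ER membrane protein that brings misfolded proteins to the degradation machinery, was the one gene of the 10 called lower with all libraries. Its input level was 108, 56.5 and 44.9 CPM in DMSO and 38.8, 39.1 and 36.4 CPM under trametinib. Footprints stood at 222, 105 and 75.8 CPM in DMSO and 51.7, 56.0 and 53.6 CPM under trametinib. All trametinib libraries lay below all DMSO libraries in both assays, DMSO replicates 2 and 3 included. The log2 change in footprints was -1.32 (SE 0.34, edgeR adjusted p = 0.0109), and -0.74 without DMSO replicate 1 (SE 0.13, adjusted p = 0.000227). In input it was -0.87 (SE 0.28, adjusted p = 0.0282), and the call was lost without DMSO replicate 1, at -0.41 (SE 0.19, adjusted p = 0.0972).

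**Figure D2:**
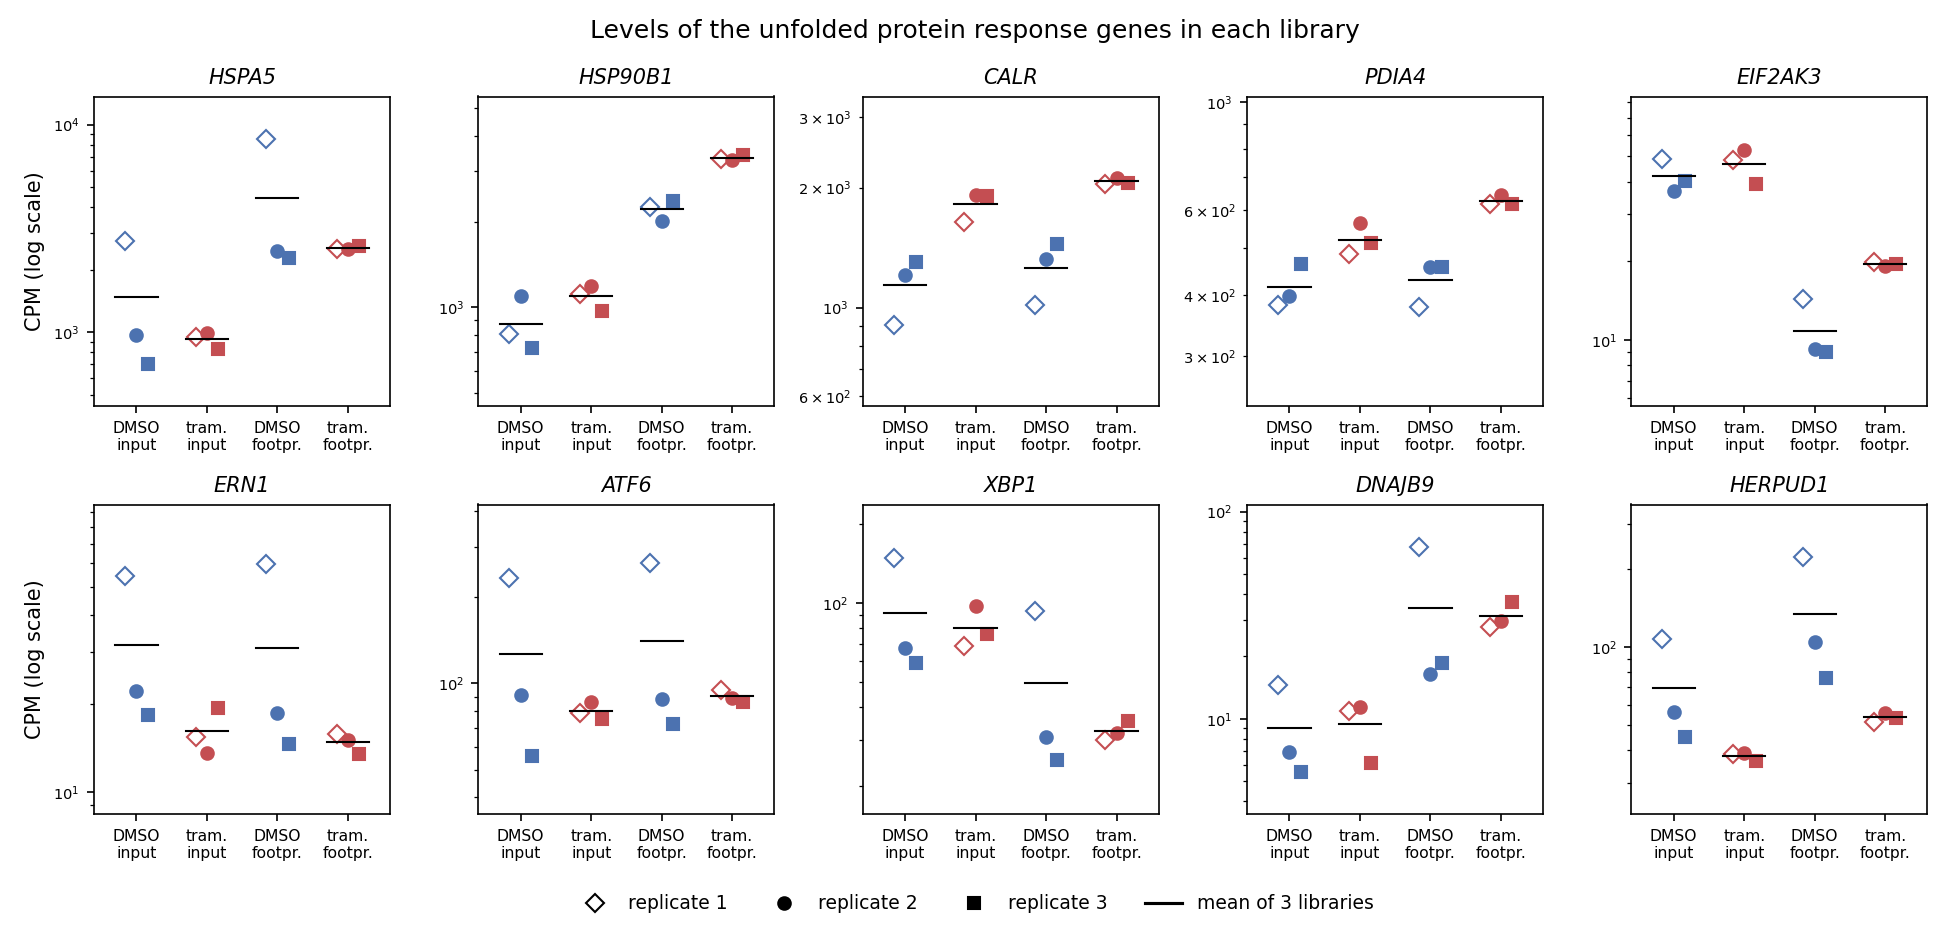
CPM on a log axis, which differs in range between panels, of each unfolded protein response gene in the 12 libraries, with DMSO in blue, trametinib in red, a symbol for each replicate number and a line at the mean of 3 libraries. The open blue diamonds of DMSO replicate 1 stand above the other libraries for HSPA5, ERN1, ATF6, XBP1, DNAJB9 and HERPUD1, and all trametinib footprint libraries lie above those of DMSO for HSP90B1, CALR, PDIA4 and EIF2AK3.

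Counted over the 10 genes, CALR was higher and HERPUD1 lower in input with all libraries, where 32.1% of all tested genes were called (15.4% higher, 16.8% lower). The groups did not overlap for 3 genes in input, CALR, PDIA4 and HERPUD1, against 46.7% of all tested genes (23.5% with trametinib above, 23.2% below). In footprints 4 genes were higher, HSP90B1, CALR, PDIA4 and EIF2AK3, and 1 was lower, HERPUD1, where 49.4% of all tested genes were called (23.9% higher, 25.6% lower). Scaled by library totals, the same 4 and 1 of the 10 genes were called, but the split over all genes went from 2545 higher and 2727 lower to 3577 higher and 1944 lower, with the median log2 change of all genes at 0.16. Groups did not overlap for these 5 genes, against 59.6% of all tested genes (29.3% above, 30.3% below). Without DMSO replicate 1, input held 1 higher gene, CALR, and no lower one (34.6% of all genes called, 16.6% higher and 18% lower), while footprints held 5 higher genes, with DNAJB9 added, and 1 lower gene (60.2% of all genes called, 29.8% higher and 30.5% lower). The share of called genes among the 10 was thus near that of all genes in each comparison but input, where it was below it with 2 of 10 genes (1 of 10 without DMSO replicate 1). The median log2 change of the 10 genes moved from -0.38 to 0.34 in footprints, and from -0.06 to 0.27 in input, when DMSO replicate 1 was left out, while the median over all genes stayed between -0.01 and 0.01. Libraries are scaled to each other, so a change shared by all mRNAs is not visible, and in bulk libraries a lower level in every cell and fewer expressing cells cannot be told apart.

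**Figure D3:**
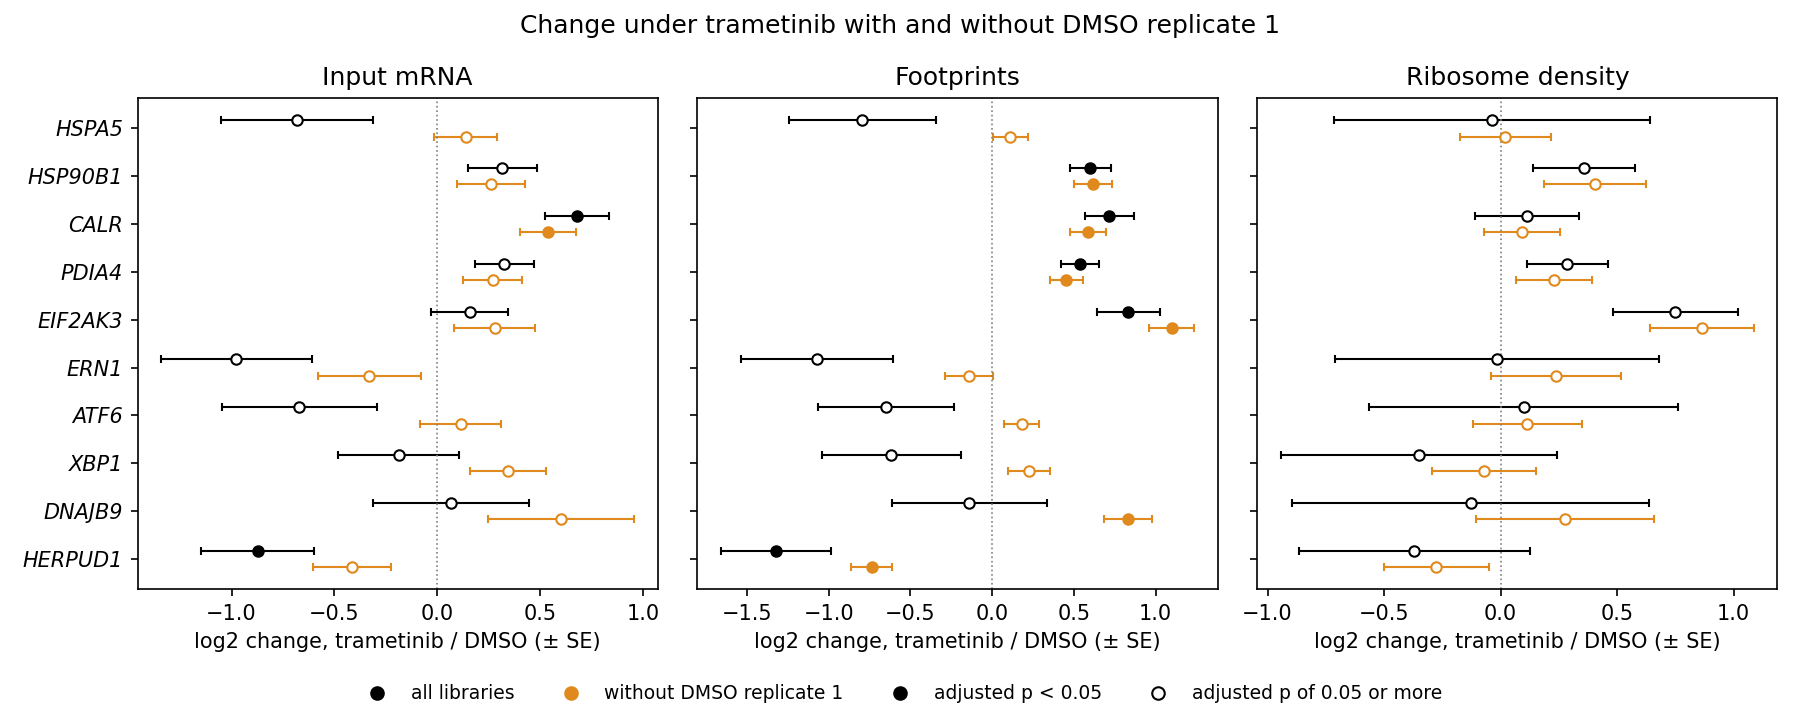
Log2 change of trametinib over DMSO, with its standard error as the bar, for each gene in input, footprints and ribosome density (the x range differs between panels), with all libraries in black and without DMSO replicate 1 in orange, filled where the adjusted p was under 0.05. The orange points of HSPA5, ATF6 and XBP1 lie near or just above 0 where the black points lie below it, and those of HSP90B1, CALR, PDIA4, EIF2AK3 and HERPUD1 keep their side.

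Levels between genes were compared per length, as CPM per kilobase of coding sequence, under trametinib, where replicates were tight. In input the order was CALR at 1415 ± 120 (SD, n = 3), HSPA5 at 470 ± 40.8, HSP90B1 at 418 ± 41.7, PDIA4 at 250.1 ± 19.0, XBP1 at 64.7 ± 11.9, ATF6 at 35.1 ± 2.45, HERPUD1 at 32.5 ± 1.25, DNAJB9 at 14.2 ± 4.35, EIF2AK3 at 13.96 ± 2.09 and ERN1 at 4.93 ± 0.89. The chaperones were thus the most abundant mRNAs and the sensors EIF2AK3 and ERN1 the least. In this order the libraries of HSPA5 and HSP90B1 overlapped, as did those of ATF6 and HERPUD1 and those of DNAJB9 and EIF2AK3. In footprints CALR at 1609 ± 30.03, HSPA5 at 1301 ± 21.6 and HSP90B1 at 1281 ± 29.8 were closer together, with the last pair overlapping, and DNAJB9 at 46.9 ± 6.98 came above XBP1 at 26.1 ± 2.10. In DMSO, HSPA5 alone reached from 1157 to 4353 CPM per kilobase in footprints.

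Ribosome density is the footprint level of a gene relative to its input level, here on the log2 scale with the median gene of each dish at 0. A dish stands for an input library and the footprint library that has its treatment and number, which the labels link by the number only. In DMSO, density was 1.74 ± 0.50 (SD, n = 3) for DNAJB9, 1.59 ± 0.20 for HSPA5 and 1.39 ± 0.45 for HSP90B1, at percentiles 97.4, 96.5 and 94.6 of all tested genes. XBP1 at -0.97 ± 0.29 and EIF2AK3 at -1.91 ± 0.19 were at percentiles 17 and 4.15. HSPA5 density was 1.67, 1.36 and 1.74 in the DMSO dishes and 1.47, 1.42 and 1.73 under trametinib, so the excess of DMSO replicate 1 in footprints was close to its excess in mRNA. Density of 6 of the 10 genes lay above the median gene in all 6 dishes, against 34.5% of all genes: HSPA5, HSP90B1, CALR, PDIA4, DNAJB9 and HERPUD1. Values between genes also carry differences in coding length and in how input and footprints are mapped.

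The density change between treatments was the interaction of assay and treatment over all 12 libraries. By the edgeR quasi-likelihood test none of the 10 genes was called, where 0.91% of all tested genes were (0.0938% higher, 0.816% lower), and DESeq2 and limma called none either. At an unadjusted p under 0.05 there was 1 gene, EIF2AK3. Its density was -1.71, -1.96 and -2.08 in the DMSO dishes and -1.23, -1.39 and -0.92 under trametinib, with no overlap. The log2 change of EIF2AK3 density was 0.75 (SE 0.27, adjusted p = 0.365), and 0.87 (SE 0.22, adjusted p = 0.0694) without DMSO replicate 1, where 1.41% of all genes were called (0.197% higher, 1.21% lower). For HERPUD1, whose footprints fell, density was 1.08, 0.90 and 0.81 in DMSO and 0.46, 0.58 and 0.64 under trametinib, also with no overlap. The HERPUD1 change of -0.37 (SE 0.49, adjusted p = 0.934) was not called. PDIA4 density did not overlap either, at 0.03, 0.21 and 0.04 in DMSO and 0.39, 0.25 and 0.36 under trametinib. Its change of 0.29 (SE 0.17, adjusted p = 0.710) was not called. The share of all tested genes without overlap in density was not counted, so these values do not show whether EIF2AK3, HERPUD1 and PDIA4 stand out. With all libraries the SE of HSPA5, ERN1, ATF6, XBP1 and DNAJB9 was between 0.59 and 0.77. This test does not pair the input and footprint library of a dish, and by it only large density changes of these genes were detectable. Without DMSO replicate 1 the SE was between 0.20 and 0.38. With the dish as a block and all libraries it was between 0.16 and 0.35, and none of these genes was called.

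**Figure D4:**
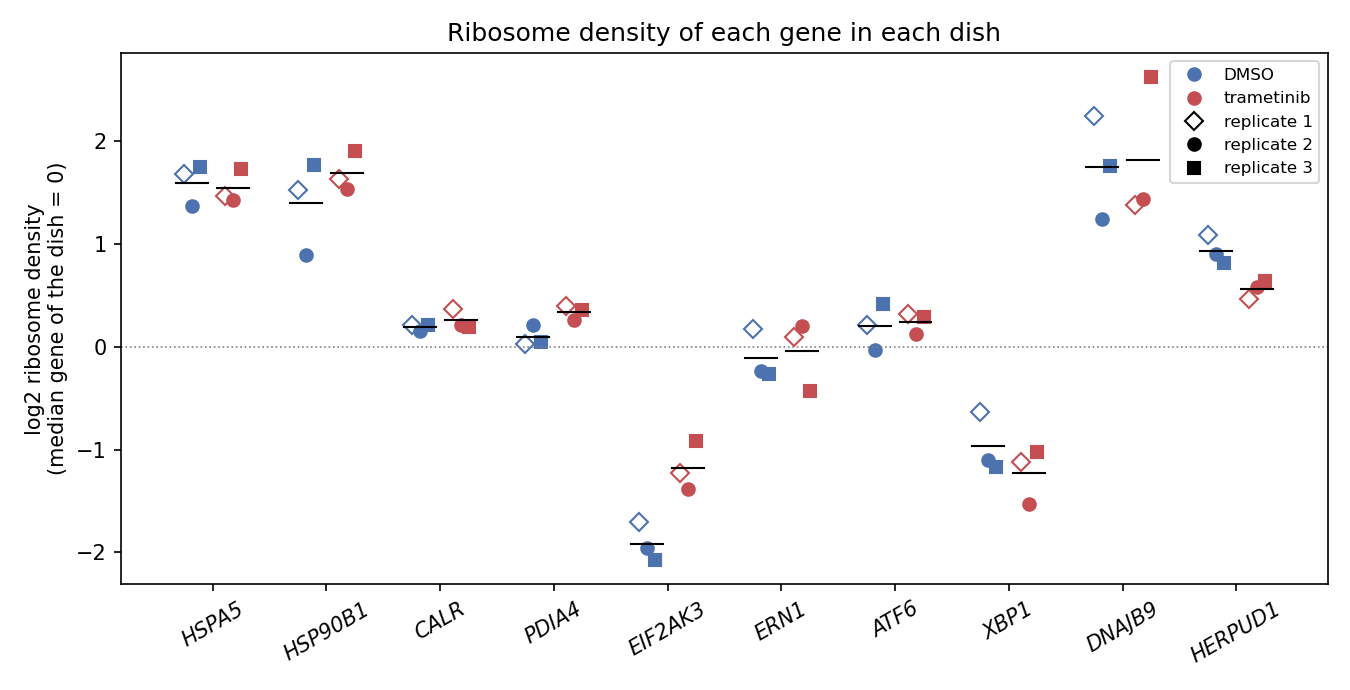
Ribosome density of each gene in each of the 6 dishes, on the log2 scale with the median gene of the dish at 0, with DMSO in blue, trametinib in red, a symbol for each replicate number and a line at the mean of 3 dishes. DNAJB9, HSPA5 and HSP90B1 have the highest means, and EIF2AK3 and XBP1 lie below 0 in all dishes. EIF2AK3 and PDIA4 are higher, and HERPUD1 is lower, in each trametinib dish than in each DMSO dish. With all libraries none of these density changes was called, and the share of all tested genes so separated was not counted.

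Other genes of the response were taken from lists by function. The list of PERK and ATF4 output, which other kinases of eIF2α also control, had 12 tested genes, of which 10 were lower and none higher in footprints and in input. The median log2 change of the list was -2.88 in footprints and -1.56 in input. Without DMSO replicate 1, 10 were lower in footprints and 8 in input, with medians of -1.71 and -1.04. Over all tested genes 25.6% were lower in footprints and 16.8% in input, and 30.5% and 18% without DMSO replicate 1. CHAC1, a glutathione-degrading enzyme, was at 84.8, 46.4 and 25.4 CPM in DMSO footprints and at 1.17, 1.51 and 1.29 CPM under trametinib, a log2 change of -5.30 (SE 0.47, edgeR adjusted p = 4.00e-05), or -4.74 without DMSO replicate 1. DDIT3, encoding the transcription factor CHOP, fell by 5.13 on the log2 scale (SE 0.56, adjusted p = 0.000125), and TRIB3, encoding a pseudokinase, fell by 4.57 (SE 0.77, adjusted p = 0.00130). Their falls were smaller without DMSO replicate 1, with log2 changes of -4.38 for DDIT3 (adjusted p = 1.14e-08) and -3.30 for TRIB3 (adjusted p = 3.60e-06). These genes were also high in DMSO replicate 1: 10 of 12 in input and 11 of 12 in footprints lay at least 2-fold above the mean of the other DMSO libraries. For CHAC1, DDIT3 and TRIB3, unlike HSPA5, DMSO replicates 2 and 3 also lay above all trametinib libraries, as DDIT3 shows with 53.0, 22.3 and 13.8 CPM in DMSO footprints and 0.73, 0.85 and 0.98 CPM under trametinib.

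ER folding machinery outside the 10 genes had 26 tested genes, of which 9 were higher and 1 lower in footprints, with a median log2 change of 0.21, and 13 higher and 3 lower without DMSO replicate 1. Over all tested genes 23.9% were higher and 25.6% lower in footprints, and 29.8% and 30.5% without DMSO replicate 1. DNAJC3, a J-domain cochaperone that also inhibits PERK, rose by 0.73 on the log2 scale in footprints (SE 0.12, edgeR adjusted p = 0.00108), PDIA5 by 0.69 (SE 0.10, adjusted p = 0.000709) and P4HB by 0.67 (SE 0.11, adjusted p = 0.00145), the last 2 being disulfide isomerases. Of this list 0 genes in input and 1 in footprints lay 2-fold above in DMSO replicate 1, as for HSP90B1, CALR and PDIA4. ER-associated degradation, the pathway of HERPUD1, had 5 higher and 3 lower of 21 genes in footprints, and 9 higher and 4 lower without DMSO replicate 1. The same shares of all tested genes stand beside these counts. OS9, a lectin of that pathway, moved against HERPUD1, from 225, 176 and 170.5 CPM in DMSO to 471, 471 and 423 CPM under trametinib in footprints, a log2 change of 1.26 (SE 0.14, adjusted p = 0.000121). ERLEC1, a related lectin, rose by 0.76 (SE 0.14, adjusted p = 0.00194), and UBE2G2, a ubiquitin-conjugating enzyme, fell by 0.69 (SE 0.13, adjusted p = 0.00273).

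UPR signalling partners had 4 higher and 4 lower of 20 genes in footprints, and 7 higher and 5 lower without DMSO replicate 1. Over all tested genes 23.9% were higher and 25.6% lower, and 29.8% and 30.5% without DMSO replicate 1. EIF2S1, encoding the eIF2α subunit that PERK phosphorylates, fell by 1.00 (SE 0.13, edgeR adjusted p = 0.000283), and TRAF2, an adaptor of IRE1, fell by 0.80 (SE 0.23, adjusted p = 0.0169). DNAJC3, named above under ER folding machinery, is also in this list and was counted in both. Its footprints rose by 0.73 (SE 0.12, edgeR adjusted p = 0.00108). For ribosome density no gene of any of these 4 lists was called by edgeR, with 1 to 2 genes of each at an unadjusted p under 0.05. Without DMSO replicate 1, 1 gene was called, ATF4, whose density fell by 1.34 (SE 0.31, adjusted p = 0.0350).

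**Figure D5:**
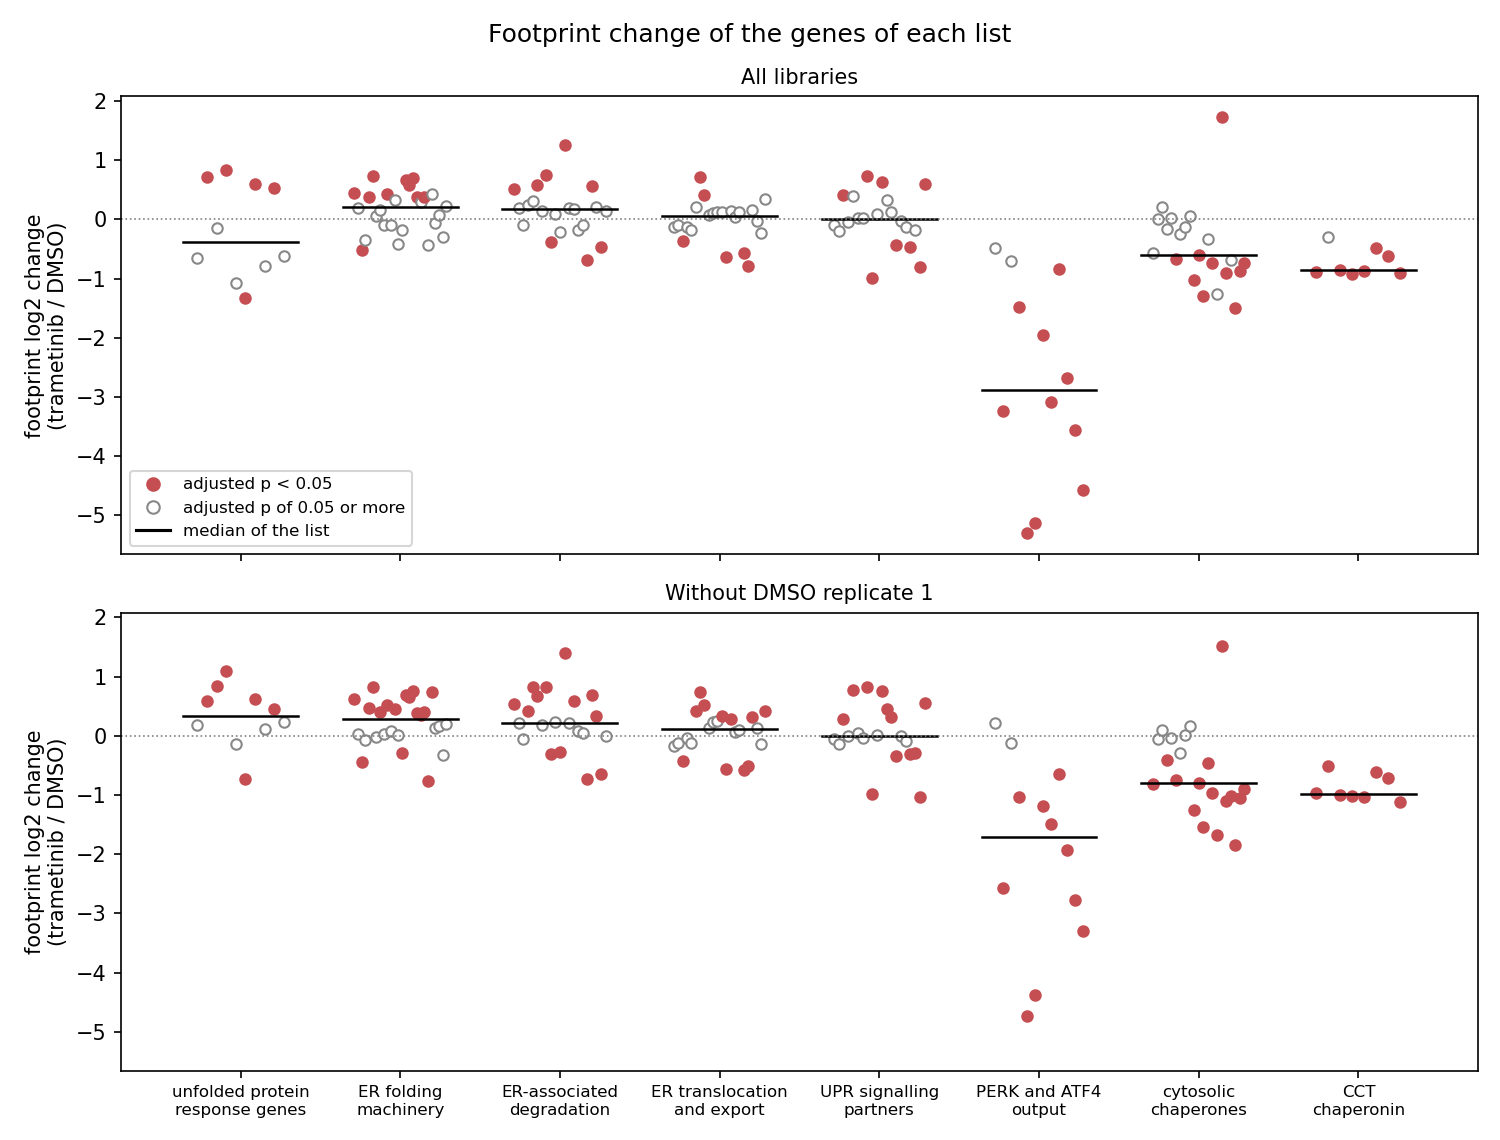
Footprint log2 change of trametinib over DMSO for every tested gene of each list, with all libraries (upper panel) and without DMSO replicate 1 (lower panel), in red where the adjusted p was under 0.05 and with a line at the median of the list. The unfolded protein response genes spread from -1.32 to 0.83 with all libraries and of the 8 lists drawn the PERK and ATF4 output has the lowest median in both panels.

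Across the 12 libraries, the genes whose log2 CPM followed HSPA5 most closely were sought among 6790 genes with a mean normalised count of at least 100 in both assays, each assay centred on its own mean. ATF6 came first with a Pearson's r of 0.99, before NIBAN1, RIOK3, SH3KBP1 and ANXA1 at 0.98 to 0.99. Over the 10 libraries without DMSO replicate 1, r with HSPA5 was 0.93 for ATF6, 0.84 for ANXA1, 0.75 for NIBAN1, 0.55 for RIOK3 and 0.52 for SH3KBP1, lower for each of the 5. Among the other unfolded protein response genes the sign of r turned for HSP90B1 (-0.27 over 12 libraries, 0.76 over these 10), CALR (-0.70 and 0.34) and PDIA4 (-0.63 and 0.26), and the other way for ERN1 (0.93 and -0.24) and HERPUD1 (0.86 and -0.12). XBP1 went from 0.95 to 0.66, DNAJB9 from 0.81 to 0.67 and EIF2AK3 from 0.15 to 0.40. These are descriptions over libraries that share treatment and, by number, dish.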

How the data were processed

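Ribosome profiling counts of 12 libraries were analysed. The authors removed adapters with the FASTX-toolkit, discarded reads matching rRNA and tRNA with Bowtie 1.2.2, mapped the rest to the Gencode basic transcripts and counted reads of footprint length in the reading frames of a single gene symbol. Reads shared between symbols were not counted. Input was counted likewise, and whether strand was used is not given in the sources used here. The deposited table holds these raw counts, and a normalised signal, each count divided by a size factor of its library. Median-of-ratios size factors, computed anew, were equal to the deposited ones in 12 of 12 libraries. Its 6 columns of comparisons (log2 fold changes and adjusted p-values, from DESeq2 1.46.0 by the authors) were not used. The number of unused columns with library values was 0.

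Groups and replicate numbers come from the sample labels. All tests used the raw counts with edgeR 4.0.16 (R 4.3.3), TMM scaling and the quasi-likelihood test: trametinib against DMSO within the 6 libraries of each assay, and the interaction of assay and treatment over 12 libraries for ribosome density. Genes entered with 10 counts or more in 3 or more input libraries, and p-values were adjusted over 10663 genes by Benjamini-Hochberg, with a threshold of 0.05. The p-values measure the spread between these cultures of 1 cell line. The SE of a log2 change is its size divided by the root of the F statistic. Density per dish used log2 CPM with a prior count of 2. The scripts were tested on simulated data. Alternatives were other scalings, filters, limma 3.58.1, DESeq2 1.42.0, replicate blocks and leaving out libraries. Leaving out both libraries of a dish, and repeating list counts without DMSO replicate 1 or with other scalings, were chosen after seeing the data. Replicate numbers were taken to pair the treatments where the deviations of every pair from their group means correlated above 0.1 over 7668 genes. DMSO and trametinib footprints met this (0.116, 0.133 and 0.294 for numbers 1, 2 and 3), which is a pairing read from the data and not stated in the labels, and input did not (0.0686, 0.0495 and 0.350).

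Coordinates and coding lengths are from Gencode v44 on GRCh38, where the coding length is the union over basic transcripts, and promoter sequences are from RefSeq on GRCh38.p14. The 10 genes and the lists were chosen with earlier results of these data known. Of each list at most 3 genes are named, those with the strongest footprint change among those called, plus any called for ribosome density. For HSPA5, the 5 genes with the highest correlation are named. Protein sequences were not used here.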

Additional observations from a re-analysis of the deposited data

How the results depend on the processing

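Over 520 recomputed changes of the 10 genes, 456 kept direction and call status, 48 changed direction and 4 lost their call, and 13 were newly called, of which 1, DNAJB9 footprints without DMSO replicate 1, is also among those that changed direction. The cause was not tested. HSP90B1, CALR, PDIA4, EIF2AK3 and HERPUD1 kept their footprint direction and call under every alternative. In input, lower genes numbered 1, but 3 with no filter on low counts (HSPA5, ERN1 and HERPUD1), 2 with DESeq2 and 0 to 4 when 1 library was left out, and higher genes numbered 1 to 2. HERPUD1 input lost its call without DMSO replicate 1 and without each trametinib library, at an adjusted p of 0.0731 to 0.0972. Footprints had 2 lower genes with no filter (ERN1 added) and 1 to 2 lower and 4 to 5 higher genes when 1 library was left out. Over all genes, leaving out 1 library gave 1069 to 1767 higher and 1221 to 1923 lower genes in input. In footprints it gave 1878 to 3176 higher and 2012 to 3247 lower genes. With no filter, and so more genes tested, 1971 genes were lower in input and 2965 in footprints. DESeq2 had 1582 lower in input, and the main test had 1787 in input and 2727 in footprints. With library totals, 3577 of all tested genes were higher and 1944 lower in footprints, against 2545 and 2727 in the main test, so list counts shift with this background. Under that scaling the ER folding machinery had 13 higher and 1 lower genes and ER-associated degradation 9 and 1. UPR signalling partners had 6 higher and 2 lower, ER translocation and export 3 and 3, and cytosolic chaperones 2 and 7. The CCT chaperonin had 6 lower genes and the ERK-driven genes 11 lower of 12. DNAJB9 footprints turned to 0.048 with library totals and 0.18 with limma. Density turned for HSPA5 to 0.055 and ERN1 to 0.085 with library totals, and for ERN1 and DNAJB9 to 0.11 with limma. Over all tested genes, 10 density changes were higher and 87 lower, against 5 higher with median of ratios scaling, 27 with library totals, 6 with a filter on either assay, and 37 higher and 150 lower with DESeq2. Leaving out 1 library or 1 dish gave 0 to 21 higher and 2 to 129 lower genes, and 0 to 1 of the 10 genes, EIF2AK3, at 1.01 (adjusted p = 0.0420) without the DMSO footprint library 1. Without both libraries of DMSO replicate 1, EIF2AK3 density was at 0.87 and not called (edgeR adjusted p = 0.0694).

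Leaving out 1 library or dish at a time turned the direction of some changes, whose lowest and highest values were as follows. In input, they were -1.01 to 0.14 for HSPA5, -1.02 to 0.11 for ATF6, -0.42 to 0.34 for XBP1 and -0.17 to 0.60 for DNAJB9. In footprints, they were -1.09 to 0.11 for HSPA5, -0.95 to 0.18 for ATF6, -0.93 to 0.23 for XBP1 and -0.45 to 0.83 for DNAJB9, the highest value being that without DMSO replicate 1 in each of these 8. In density, they were -0.85 to 0.86 for HSPA5, -0.69 to 0.92 for ATF6, -0.66 to 0.91 for ERN1, -0.88 to 0.49 for XBP1, -0.67 to 0.84 for DNAJB9, -0.83 to 0.21 for HERPUD1 and -0.025 to 0.25 for CALR. All lowest values but that of CALR came without the input library and all highest values but that of CALR without the footprint library of DMSO replicate 1. Leaving out 1 of these libraries unbalances the unpaired test, so such values do not measure density alone. Without both, density changed by 0.02 for HSPA5, 0.11 for ATF6, 0.24 for ERN1, -0.07 for XBP1, 0.28 for DNAJB9, -0.28 for HERPUD1 and 0.09 for CALR.

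Equal numbers paired the treatments in footprints but not in input by the limit on correlations, and with the number as a block no footprint call of the 10 genes changed (4 higher, 1 lower). Between input and footprints, deviations of equal numbers correlated at 0.818, 0.182 and 0.345 for the 3 DMSO numbers, each above the limit of 0.1. For trametinib they correlated at 0.144, 0.0790 and -0.133, so not every pair met the limit. By the authors' methods input and footprints were parts of the same lysate, and this check cannot decide which libraries share a lysate. Equal numbers were taken as a dish for density per dish, while the main density test had no block. Of 6 footprint libraries, 2 correlated best with the input library of their own number, and of 6 DMSO libraries, 4 did so with the trametinib library of theirs. With the number as a block, ERN1 was added to the lower genes in input (2 genes), where 2053 of all genes were lower. With that block DNAJB9 footprints were at 0.17, and density was at 0.0013 for HSPA5, 0.12 for DNAJB9 and 0.093 for ERN1. With the dish as a block, 31 genes were higher in density, ERN1 was at 0.068, and EIF2AK3 was at 0.78 (adjusted p = 0.0913).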

Other observations

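Of 21 tested cytosolic chaperones, 9 were lower and 1 was higher under trametinib in footprints, with a median log2 change of -0.60, where 25.6% of all tested genes were lower and 23.9% higher. Without DMSO replicate 1 there were 14 lower and 1 higher, with a median of -0.79, against 30.5% and 29.8% of all tested genes. HSPH1, a nucleotide exchange factor of Hsp70, fell by 1.49 on the log2 scale (SE 0.37, edgeR adjusted p = 0.00944), and HSPA14, an Hsp70 of the ribosome-bound complex, fell by 1.29 (SE 0.24, adjusted p = 0.00227). The gene that rose was HSPB1, a small heat shock protein, with 261, 467 and 428 CPM in DMSO and 1226, 1439 and 1155 CPM under trametinib in footprints, a log2 change of 1.72 (SE 0.22, adjusted p = 0.000266). The HSPB1 groups did not overlap. Of the 8 subunits of the CCT chaperonin, which folds actin and tubulin, 7 were lower in footprints and in input, and 8 and 7 without DMSO replicate 1. CCT5 was at 996, 1139 and 1314 CPM in DMSO footprints and at 599, 588 and 627 CPM under trametinib (log2 change -0.93, SE 0.13, adjusted p = 0.000552), and TCP1 and CCT2 fell by 0.91 and 0.88. For density no gene of either list was called by edgeR, and 0 genes had an unadjusted p under 0.05. Without DMSO replicate 1 none was called either, and 3 cytosolic chaperones and 1 CCT subunit had an unadjusted p under 0.05. ER translocation and export had 2 higher and 4 lower of 22 genes in footprints, and 7 higher and 4 lower without DMSO replicate 1. SEC31A of the COPII coat rose by 0.72 (SE 0.12, adjusted p = 0.00156), and SRPRB of the signal recognition particle receptor fell by 0.78 (SE 0.19, adjusted p = 0.00817), as did SPCS1 of the signal peptidase by 0.64 (SE 0.12, adjusted p = 0.00272).

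Genes other than the unfolded protein response genes followed here were further above their group than HSPA5 in DMSO replicate 1. UPP1, a uridine phosphorylase, was higher by 3.81 in input and 3.95 in footprints on the log2 scale, KRT80 by 2.34 and 3.02, AREG, an EGF receptor ligand, by 2.29 and 2.30, and PCK2, a mitochondrial enzyme of gluconeogenesis, by 2.12 and 2.55. These genes were picked after their values were seen, from the 15 foremost in both assays. The same 15 held TRIB3 of the PERK and ATF4 output, higher by 1.86 in input and 2.55 in footprints. Whether UPP1, KRT80, AREG and PCK2 also respond to ER stress was not tested. Of the 21 cytosolic chaperones, 3 in input and 3 in footprints lay at least 2-fold below the other DMSO libraries and none above, where 213 and 178 of 10663 tested genes lay below.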
